A study of Mus musculus with 11 samples.

Results

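The desert is the last 930 kb of the captured region, chromosome 1 from 123470001 to 124400000 in the coordinates of the deposited maps (build mm9 in the submitters' processing notes). It was described through every pair of 10 kb bins with both bins inside it. The stretch holds 93 of the 420 bins and 4371 of the 88410 bin pairs of each map. Of these, 4095 lie at least 30 kb apart. Its left end was chosen by measured values, namely an insulation minimum that earlier work on these maps had placed at 123470001. The score at that edge and the contacts across it are therefore given as a description and are not tested.

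The maps are Capture Hi-C of mouse embryos at embryonic day 9.5. This assay ligates DNA ends that lie close together in fixed nuclei and enriches the products for a chosen region, so that each read pair reports a contact. Wild-type forelimb, wild-type forebrain and wild-type midhindbrain boundary were sampled with 3 libraries each, and forelimb of mutants with a stop cassette insertion with 2. The series title names the loss of the long non-coding RNA Maenli, and the labels used here do not give the position of the cassette. The strain field names the cross c57bl6.J X 129S6.sv for every library, but wild-type forelimb stands apart through the tag CD1 in its sample titles and an earlier series of library numbers. Strain and library series therefore cannot be told apart from genotype or tissue wherever the wild-type forelimb map is compared. The stop-cassette libraries have later library numbers than the brain libraries. Library series therefore cannot be told apart from genotype and tissue where the stop-cassette map is set beside the brain maps. The authors merged the libraries of a group into 1 map, so there is no replicate spread, and each interval covers counting error only. Whether the stop-cassette libraries come from separate litters or cell clones is not stated in the labels.

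A gene desert is a long stretch without protein-coding genes. Such stretches often form topological domains, within which loci meet each other more than they meet loci outside, and the walls of a domain are commonly bound by CTCF and cohesin. Looping of a domain's 2 ends onto each other is seen in many maps as a bright corner. In the reference gene order (RefSeq, GRCm38.p6), the protein-coding genes Ccdc93, Htr5b (a serotonin receptor) and Ddx18 (a DEAD-box RNA helicase) stand next to each other. After Ddx18 follow 6 features, of which 4 are pseudogenes, 1 is a long non-coding RNA and 1 a small nucleolar RNA. The next protein-coding gene is Dpp10, which encodes a dipeptidyl peptidase-like partner of potassium channels. Because that reference is of another build, only the order was used, and which of these features fall inside the desert was not looked up.

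Raw coverage was low across the desert. A bin of the desert had a median of 22572 raw contacts in wild-type forelimb, 26458 in wild-type forebrain, 25284 in wild-type midhindbrain boundary and 19522 in stop-cassette forelimb. Those medians are 58.5%, 66.8%, 63.5% and 60.5% of the median bin of the same map, and all 4 maps were alike in this. Bins elsewhere had medians of 42856, 42936, 44148 and 35709. The shortfall did not grow towards the end of the region: the medians of the first, middle and last 310 kb were 22778, 22307 and 22585 in wild-type forelimb, and 19998, 19522 and 19507 in stop-cassette forelimb. The maps held between 7662227 and 9523316 raw contacts in all, and no desert bin pair was empty in any of them. A desert bin pair had a median of 102, 113, 105 and 71 contacts in the 4 maps, in the order above, which is used throughout.

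Bins with a raw sum under 50% of their map's median were called low. They numbered 30, 20, 23 and 31 of the 93 desert bins, against 8, 10, 10 and 10 of the 327 bins elsewhere. In all 4 maps 19 desert bins were low, and 34 were low in at least 1. The lowest was 123560001, 90 kb inside the edge, with 4213, 4390, 4308 and 3362 contacts, or 10.9%, 11.1%, 10.8% and 10.4% of the median. Next, in an order that differed between maps, came 124340001, at 21.8%, 24.0%, 23.6% and 21.2%, and 124260001, at 21.7%, 24.9%, 24.5% and 23.0%. The bin 123790001 lay at 25.1%, 24.4%, 23.1% and 22.4%. At 123950001 the sums were 27.1%, 27.7%, 27.1% and 23.6%. The same bins were thus depleted in each tissue and genotype. The others that were low in every map start at 123480001, 123520001, 123620001, 123630001, 123650001, 123670001, 123750001, 123920001, 123930001, 123980001, 124330001, 124350001, 124360001 and 124390001. Low in some maps were 123470001, 123530001, 123640001, 123710001, 123960001, 123970001, 124000001, 124010001, 124040001, 124070001, 124100001, 124110001, 124150001, 124210001 and 124380001. In wild-type forelimb the highest low bin had 19164 contacts and the lowest bin not called low had 19519, so the threshold separates no distinct class.

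**Figure D1:**
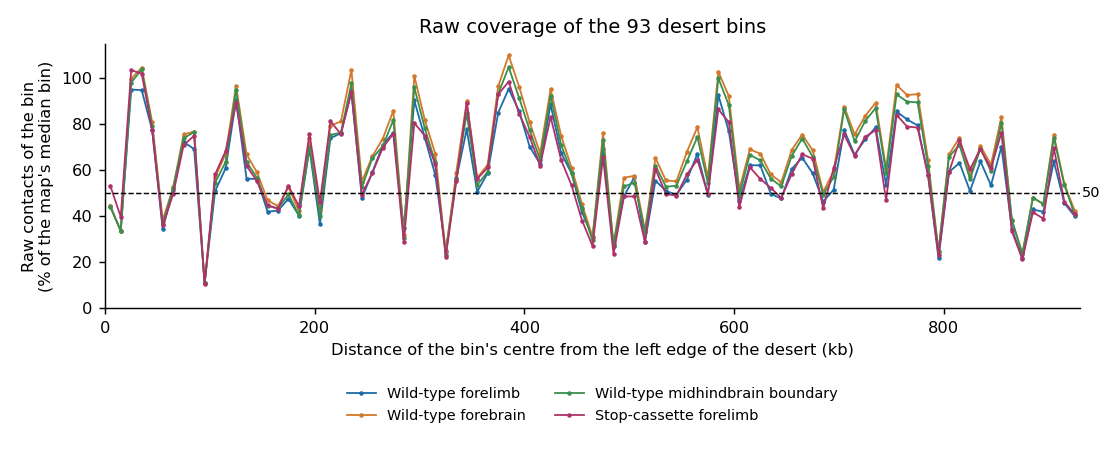
Raw contacts of each 10 kb bin of the desert, as a percentage of the median bin of its map (vertical axis), against the distance of the bin's centre from the left edge in kb (horizontal axis). Each line is 1 of the 4 maps and the dashed line marks 50%. The lines run together, and the bin at 90 to 100 kb falls to 10.4 to 11.1% in every map.

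A locus with few raw contacts can still have a normal pattern of partners, and the Knight-Ruiz (KR) maps remove such a difference. KR balancing divides each raw count by 1 factor per bin so that every bin has the same summed signal. The median factor was 0.754, 0.798, 0.778 and 0.764 in the desert and 1.06, 1.05, 1.06 and 1.07 elsewhere. Levels in the following are KR signal over that expected at the same distance in the whole map (observed/expected, O/E) unless raw counts are named. The desert is at the end of the captured region and has partners on 1 side only. Balancing forces its sum up to that of the other bins, so raw values are given beside the balanced ones.

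Inside the desert, contact fell slowly with distance, and in the balanced maps its ends met each other more than the map average at their distance. The slope of log KR signal on log distance from 30 to 900 kb was -0.60 in wild-type forelimb, -0.58 in wild-type forebrain, -0.58 in wild-type midhindbrain boundary and -0.68 in stop-cassette forelimb (counting SD 0.0038, 0.0037, 0.0037 and 0.0048). The captured region as a whole had -0.93, -0.93, -0.93 and -0.92. The 3 windows of equal length to the left, which cross insulation minima, had slopes from -0.73 to -1.22. Raw counts gave -0.64, -0.63, -0.61 and -0.70 for the desert.

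Slopes up to 500 kb were also set beside those of domains between insulation minima of the wild-type forelimb map. These domains are too short to show the decay up to 900 kb. Minima inside them in the other maps were not looked for. Over 30 to 500 kb, the desert had -0.69, -0.66, -0.69 and -0.74. The domain 121360001 to 121910000 had -0.70, -0.75, -0.79 and -0.70, and the domain 121910001 to 122470000 had -0.68, -0.70, -0.71 and -0.67. The domain 122470001 to 123080000 was shallower than the desert, at -0.42, -0.38, -0.47 and -0.48. Over this shorter range, the decay of the desert was thus within the range of these domains in the 3 wild-type maps, in a comparison chosen after its values were seen. In the stop-cassette map the desert was the steepest of the 4 stretches.

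O/E rose with every step of distance in each of the 4 maps. Between 30 and 100 kb the mean was 1.06, 1.05, 1.05 and 1.06, close to the map average. It reached 1.36, 1.37, 1.36 and 1.26 between 310 and 500 kb, and 2.30, 2.46, 2.49 and 1.93 between 710 and 920 kb. The first window to the left reached 1.21, 1.29, 1.49 and 1.24 in that longest band, and the second window fell to 0.536, 0.532, 0.520 and 0.629. Raw counts over raw expected in the desert rose from 0.610, 0.674, 0.645 and 0.619 in the shortest band to 1.14, 1.36, 1.32 and 0.999 in the longest. The rise is therefore present before balancing, on a lower level, and it ended highest in the 2 brain maps and lowest in stop-cassette forelimb. On this raw scale the first window was above the desert in the longest band in all 4 maps, at 1.45, 1.52, 1.78 and 1.48, so the desert exceeded it after balancing only.

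**Figure D2:**
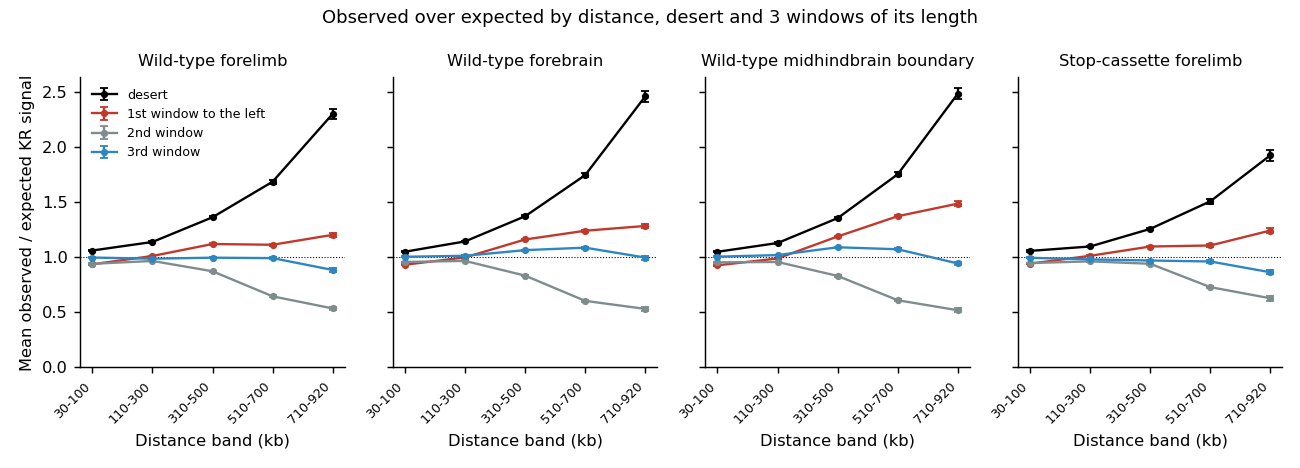
Mean observed/expected KR signal (vertical axis) in 5 bands of distance in kb (horizontal axis) for the desert and the 3 windows of the same length to its left, 1 panel per map. Bars are 95% counting intervals and the dotted line is the map average. The desert climbs from 1.06 to 2.30 in wild-type forelimb and from 1.06 to 1.93 in stop-cassette forelimb.

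Every desert pair 710 to 920 kb apart joins the first with the last 310 kb, so this block restates the rise with distance. Pairs within 1 such stretch are closer together, and the contrast with them cannot place the rise at the ends. Pairs of the first with the last 310 kb had a mean O/E of 1.80 (95% counting interval 1.78 to 1.82), 1.89 (1.87 to 1.90), 1.90 (1.88 to 1.91) and 1.58 (1.56 to 1.60). Pairs within the first 310 kb had 1.08, 1.08, 1.05 and 1.02, and pairs within the middle 310 kb 1.09, 1.08, 1.09 and 1.07. Of the pairs between the ends, 98.5%, 98.9%, 99.4% and 94.7% were above 1. Leaving out the last 200 kb gave 1.58, 1.63, 1.64 and 1.42, and leaving out low bins gave 1.75, 1.84, 1.84 and 1.56. Raw counts over raw expected were 0.957, 1.10, 1.07 and 0.866 between the ends, so on the raw scale the forelimb maps lay under the map average. Within the first 310 kb the raw ratios were 0.590, 0.636, 0.598 and 0.589. The same corner block had a balanced O/E of 1.08, 1.17, 1.33 and 1.08 in the first window to the left, 0.641, 0.606, 0.603 and 0.724 in the second and 0.987, 1.11, 1.10 and 0.960 in the third. On raw counts the order turned: the first window had 1.16, 1.21, 1.44 and 1.18 and the third 1.23, 1.36, 1.37 and 1.14, above the desert in all 4 maps, and the second had 0.717, 0.654, 0.649 and 0.814, below it. That the desert corner exceeded those of its neighbours thus holds for balanced signal only. At the other end of the captured region, a stretch of equal length had a balanced O/E of 0.894, 0.891, 0.923 and 0.929 and a raw ratio of 0.952, 0.931, 0.977 and 0.939.

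**Figure D3:**
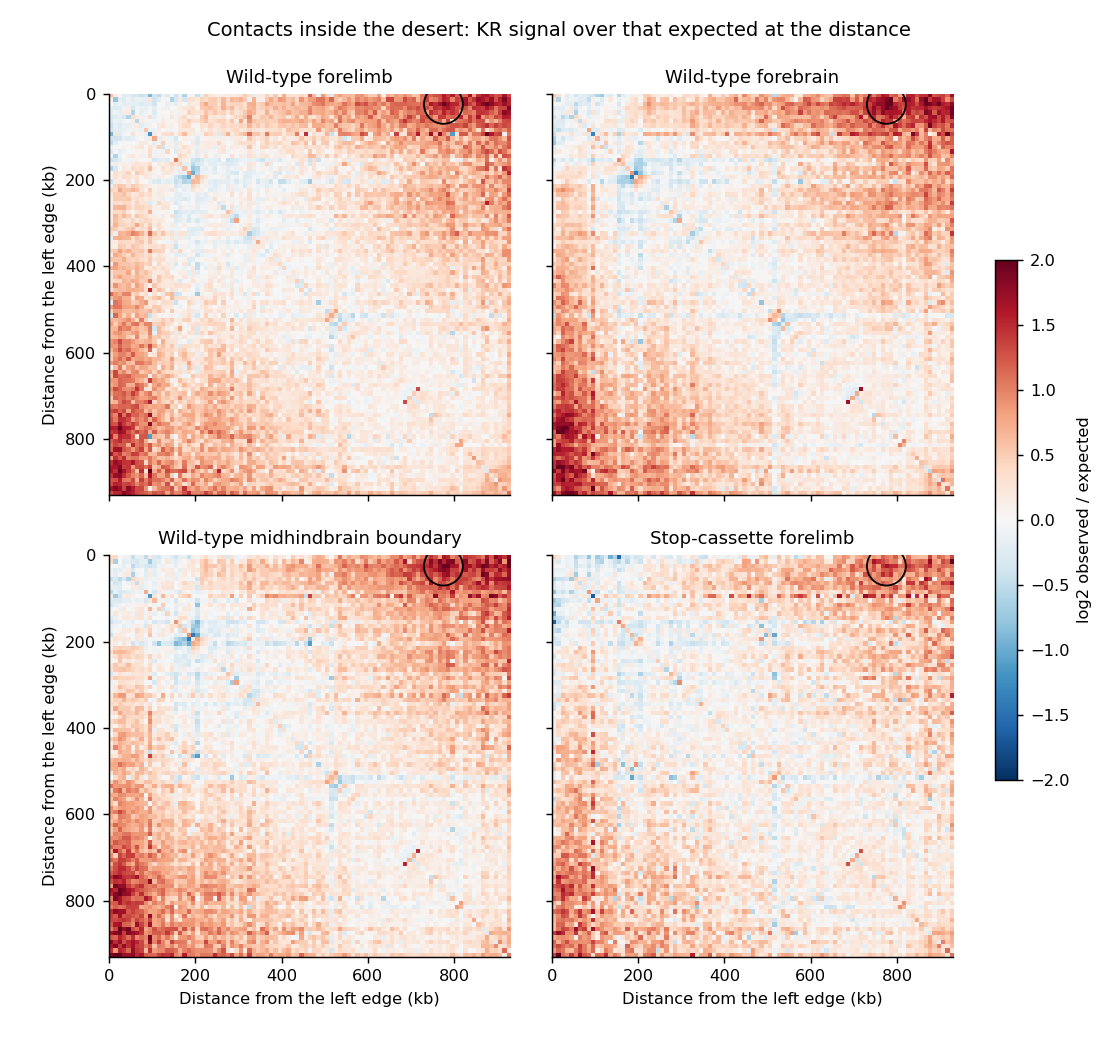
Observed/expected KR signal on a log2 colour scale for all bin pairs of the desert in the 4 maps, with both axes in kb from the left edge. Red is above and blue below the level expected at the distance in the whole map, and the circle marks the pair 20 and 770 kb from the edge. The corner where the 2 ends meet is red in all 4 maps and palest in stop-cassette forelimb, and a pale blue notch lies near 190 kb in the wild-type maps.

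The highest pair by a fixed rule, called the focus here, lay in that corner. The bin 123490001 to 123500000, 20 kb inside the left edge, and the bin 124240001 to 124250000, 750 kb further on, shared 234 raw contacts in wild-type forelimb, 297 in wild-type forebrain, 232 in wild-type midhindbrain boundary and 128 in the forelimb with the stop cassette. Counts expected from distance and KR factors were 54.1, 56.1, 54.6 and 40.5. The O/E was 4.33 (exact 95% Poisson interval 3.79 to 4.92), 5.29 (4.71 to 5.93), 4.25 (3.72 to 4.83) and 3.16 (2.64 to 3.76). All 4 maps lay above 1, as nearly all pairs between the ends did, and the wild-type forebrain map was the highest. This pair had the highest mean log2 O/E of the 1371 desert pairs at least 100 kb apart that had 20 raw counts in every map and no low bin, and it was named for that reason. A high O/E is therefore partly set by that choice. Over all pairs between the first and last 310 kb, low bins included, the highest O/E was 4.45, 5.29, 4.44 and 4.06. The focus was thus the highest of them in wild-type forebrain only.

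The block of 3 by 3 bins around it had 1.52, 1.77, 1.66 and 1.48 times the mean O/E of the ring of bins 30 to 50 kb away from it. By this local ratio, computed after the map values were seen, the pair ranked 1, 1, 1 and 2 among the 1371 pairs, whose median was 1.00, 0.997, 0.997 and 1.01. A pair picked for its high O/E tends to have a high local ratio in the same maps, so this rank describes the focus and supports nothing. The 95th percentile of the 1371 pairs was 1.18, 1.20, 1.20 and 1.17. In the stop-cassette map the pair of 123500001 with 124240001, next to it, ranked first. Against the mean of the desert itself at the same distance, the O/E of the focus was 1.87, 2.15, 1.71 and 1.66 rather than 3.16 to 5.29, because other pairs at that distance are high as well.

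The 5 pairs named for the highest mean O/E, once low bins and pairs within 20 kb of a named pair were left out, all included the bin 123490001. Besides 124240001 its partners were 124290001, with an O/E of 3.23, 3.0, 3.25 and 2.68, and 124320001, with 3.03, 3.07, 3.19 and 2.27. The partner 124370001 had 2.84, 2.99, 2.67 and 2.24, and 124160001 had 2.18, 2.91, 2.54 and 2.38. They share a bin and are not separate observations. Over all 61 desert partners at least 300 kb away, the mean O/E of 123490001 was 2.26, 2.46, 2.33 and 1.81, which ranked 1, 1, 1 and 2 among the 93 bins. Against the desert's own mean at each distance the value was 1.23, 1.29, 1.22 and 1.14, with ranks 1, 1, 1 and 3. In the stop-cassette map the bin with the lowest raw sum, 123560001, ranked first on both scales. The bin 123490001 was itself well covered, and it was the bin of highest raw sum in the stop-cassette desert, with 33362 contacts.

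The bins just inside the left edge reached far to 1 side. This is partly set by the choice of the edge, which is an insulation minimum. The bin 123490001 was also picked for its high O/E inside the desert. With bins of the first window that lie at least 300 kb to its left, outside the desert, it had a mean O/E of 0.584, 0.517, 0.586 and 0.811. The bin at the edge, 123470001, had 0.637, 0.609, 0.653 and 0.795 to the left and 1.83, 1.88, 1.84 and 1.42 to the right. Each of these bins was below the map average on the outer side and above it on the inner side in all 4 maps. The same held for every bin up to the one 70 kb inside the edge, so the split is not particular to 123490001. The left values were highest and the right values lowest in the stop-cassette map.

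**Figure D4:**
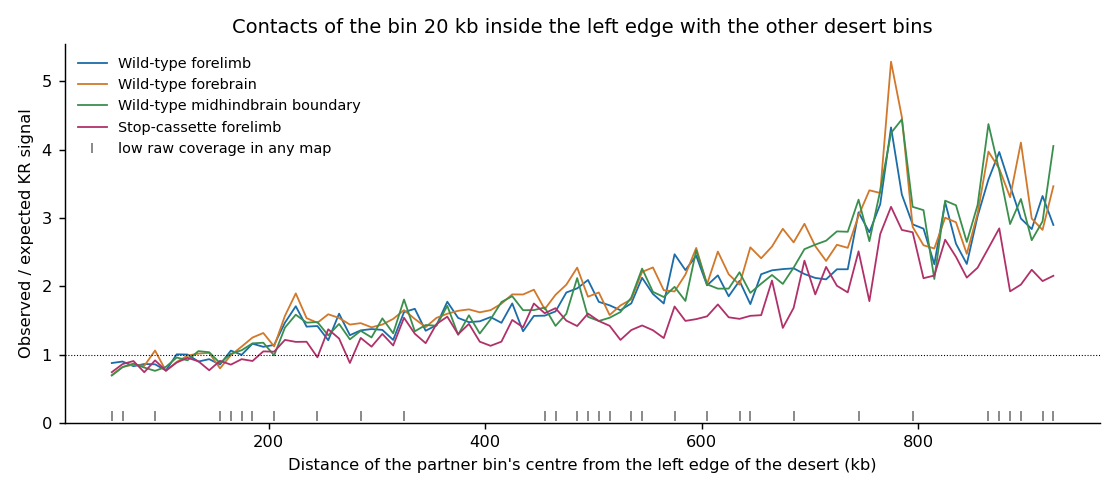
Observed/expected KR signal (vertical axis) of the bin 20 kb inside the left edge with each desert bin at 50 kb or more (horizontal axis, distance of the partner's centre from the left edge in kb), 1 line per map. Grey ticks mark partners of low raw coverage and the dotted line is the map average. All 4 lines rise with distance. They are highest at the bin at 770 kb in the 2 forelimb maps and forebrain, at 4.33, 3.16 and 5.29, and at its neighbour at 780 kb in midhindbrain boundary, at 4.44.

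The 3 lowest named pairs were close to the map average. The pair 124120001 with 124280001 had an O/E of 0.80, 0.90, 0.87 and 0.79. The pair 124050001 with 124280001 had 0.94, 0.85, 0.81 and 0.85, and 123740001 with 123840001 had 0.84, 0.89, 0.91 and 0.83. Of the 1371 eligible pairs, 1245, 1269, 1252 and 1176 were above 1. Pairs were ranked singly, and no search for larger depleted patches was made.

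Insulation compares the contacts across a bin edge with the map average, and a minimum marks a place that contacts tend not to cross. With a square of 200 kb on either side, the left edge had a score of -0.71, -0.82, -0.78 and -0.69 on the log2 scale. Those are the values that chose the edge. Further in, no minimum reached the depth of 0.2 in any map, while the whole maps held 7 such minima each. The score was above the map mean at 86.3%, 84.9%, 84.9% and 80.8% of the 73 edges scored inside. The deepest inner dip lay at 123800001, with depths of 0.15, 0.13 and 0.12 in the wild-type maps and under 0.1 in stop-cassette forelimb. Its score was 0.05, 0.07, 0.05 and 0.07, still above the mean. At a minimum depth of 0.1 it would count as 1 minimum in each wild-type map. The count of 0 depended on the processing: raw counts gave 2, 1, 1 and 2 inner minima, and leaving low bins out of the square gave 1, 1, 1 and 2. With raw counts the score at 123800001 was -0.76, -0.62, -0.72 and -0.74. The last 200 kb could not be scored.

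A finer square of 100 kb found 1 inner minimum in each wild-type map, at 123660001, 190 kb inside the edge. Its depth was 0.25, 0.29 and 0.35 and its score -0.12, -0.16 and -0.22 (counting SD 0.012, 0.013 and 0.013). In stop-cassette forelimb the score there was -0.0092 (counting SD 0.013), and the nearest dip lay at 123700001 with a depth of 0.18, short of the threshold. A shallow dip at 124000001 was found in all 4 maps, with depths of 0.17, 0.20, 0.19 and 0.13.

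**Figure D5:**
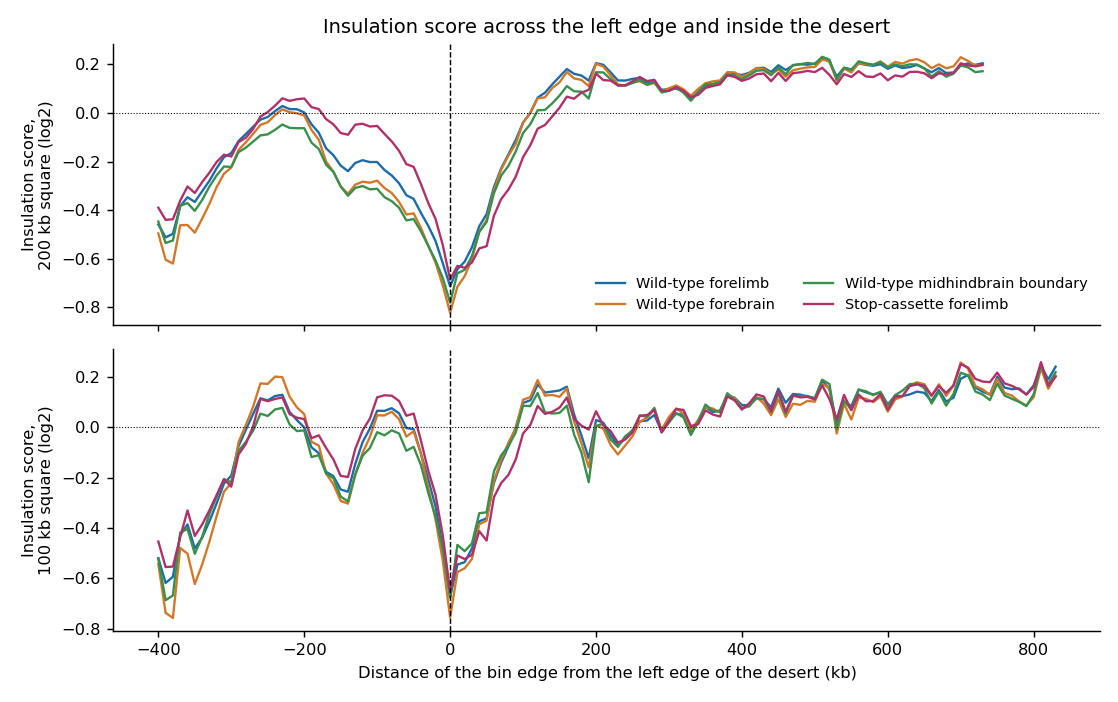
Insulation score on the log2 scale (vertical axes) for squares of 200 kb (top) and 100 kb (bottom) against the distance of the bin edge from the left edge of the desert in kb (horizontal axis), 1 line per map. Negative values mark edges that contacts cross less than average, and the dashed line is the left edge. All 4 maps dip at the edge, to between -0.69 and -0.82 with the larger square, and the 3 wild-type maps dip again at 190 kb with the smaller one.

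The notch at 123660001 was visible in single bin pairs. The neighbouring bins 123650001 and 123660001 shared 663, 589 and 581 raw contacts in the wild-type maps and 984 in stop-cassette forelimb. Counts expected from distance and KR factors were 1318, 1517, 1534 and 1372. The O/E was 0.50 (exact 95% Poisson interval 0.47 to 0.54), 0.39 (0.36 to 0.42), 0.38 (0.35 to 0.41) and 0.72 (0.67 to 0.76). On its right, 123660001 and 123670001 had 1.59, 1.71, 1.72 and 1.62, similar in all 4 maps. Across the notch, 123640001 with 123660001 had 0.60, 0.60, 0.56 and 0.89. The next pair across it, 123650001 with 123670001, had 0.70 (0.61 to 0.79), 0.57 (0.50 to 0.65), 0.51 (0.44 to 0.59) and 0.87 (0.77 to 0.97). The stop-cassette map was the highest of the 4 in each of these 3 pairs. In the first of them wild-type forelimb lay between the brain maps and stop-cassette forelimb, with intervals apart from all of these, and in the last its interval overlapped that of stop-cassette forelimb. The bin 123650001 is low in raw coverage in all 4 maps, and these pairs are closer than the 30 kb at which pair tests began. The part of coverage in the difference was not tested.

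A second short-range feature was seen in all 4 maps. The bin 124150001 is low in raw coverage in 3 of them, at 46.3%, 49.3% and 43.4% of the median in wild-type forelimb, midhindbrain boundary and stop-cassette forelimb. The bins 124150001 and 124180001, 30 kb apart, shared 1098, 1540, 1362 and 794 contacts, an O/E of 2.48 (2.33 to 2.63), 3.29 (3.13 to 3.46), 2.87 (2.72 to 3.03) and 2.44 (2.27 to 2.61). Pairs of the same distance beside it, 124140001 with 124170001 and 124160001 with 124190001, had between 0.87 and 1.26. The 2 bins between them, 124160001 and 124170001, had 1.41, 1.70, 1.62 and 1.68 with each other. Both features were picked out after the maps were seen.

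The spread of balanced O/E inside the desert was smaller than in the windows. The SD of log2 O/E over the 3013 pairs from 50 to 500 kb was 0.268, 0.278, 0.271 and 0.276, of which counting error accounts for 0.157, 0.149, 0.155 and 0.187. The part beyond counting was 0.217, 0.235, 0.222 and 0.203. The 3 windows to the left had SDs from 0.432 to 0.581. On raw counts the desert had 0.721, 0.736, 0.739 and 0.721, and the windows, from 0.557 to 0.946, lay on both sides of it. The domain 121360001 to 121910000 was as even as the desert, with 0.266, 0.275, 0.257 and 0.303. The domains 121910001 to 122470000 and 122470001 to 123080000 had 0.406 to 0.492 and 0.452 to 0.533. An even interior was therefore not found in the desert alone. Pearson's r of log2 O/E over the 3013 pairs was 0.672 for wild-type forelimb with forebrain, 0.629 with midhindbrain boundary and 0.695 between the 2 brain maps. For stop-cassette with wild-type forelimb it was 0.537. In the windows the same 4 comparisons gave 0.869 to 0.946, but counting error there was 0.113 to 0.153 of a much larger spread. The lower r in the desert thus came with a larger share of counting error and is not read as a weaker likeness. Bin pairs share bins and libraries, so these are descriptions.

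Of the contacts that desert bins made at 30 kb or more, 61.8%, 64.9%, 64.2% and 57.1% had both ends inside. From 100 kb on the shares were 51.3%, 55.0%, 53.8% and 45.5%. Contacts beyond the right end of the captured region are not counted, which raises the share. The left edge was also chosen as an insulation minimum, where few contacts cross, so a high share is partly set by that choice. The share can be compared between maps and not between windows, and the values of other stretches are given as a description. The stretch of equal length at the other end kept 55.9%, 54.9%, 56.9% and 52.9% at 30 kb or more. Its outer contacts are not counted either, but its inner edge was not chosen by insulation. The 3 windows to the left of the desert, with partners on both sides, kept 40.6% to 53.7%. Pairs inside the desert made up 9.76%, 10.9%, 10.5% and 9.26% of all contacts at these distances and 4.70% of the bin pairs. With the first window to the left, the desert had a mean O/E of 0.709, 0.690, 0.685 and 0.772, so contacts across the edge were under the average in all 4 maps and least so in stop-cassette forelimb. With the second window the order differed, at 0.833, 0.816, 0.937 and 0.738.

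The question set by the stop cassette is whether folding of the forelimb locus changes when the cassette is present. In the desert, the stop-cassette map had the steepest decay, the palest corner and the lowest retention of the 4. Its slope differed from that of wild-type forelimb by -0.073 (95% counting interval -0.085 to -0.061), while over the captured region the difference was 0.0034 (0.0012 to 0.0057). The mean O/E between the ends differed by -0.22 (-0.25 to -0.20) and retention by -4.72 percentage points (-4.87 to -4.56). These intervals hold counting error alone. Between the 3 wild-type maps the desert slopes differed by -0.026 to 0.0067 and retention by -3.10 to -0.72 points. Within the desert, the step to the stop-cassette map was thus larger than those between wild-type tissues. This did not hold for slopes elsewhere. In the first window to the left, wild-type forelimb minus midhindbrain boundary was -0.102, and midhindbrain boundary minus forebrain was 0.070. Forelimb minus forebrain was smaller there, at -0.032, and in the windows further left the wild-type slopes differed by -0.037 to 0.040. The desert step of -0.073 was thus exceeded in size by wild-type forelimb minus midhindbrain boundary in the first window. How often stretches of this length differ by as much was not measured. Stop-cassette minus wild-type forelimb was 0.013 in the first window and -0.012 in the third. In the second window to the left, the slope differed between the forelimb maps by 0.073 (0.054 to 0.092), opposite in sign to the desert.

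The difference between the forelimb maps grew with distance. The median log2 ratio of stop-cassette over wild-type forelimb, relative to the map average at each distance, was -0.0014 between 30 and 100 kb. It was -0.060 from 110 to 300 kb, -0.12 from 310 to 500 kb, -0.15 from 510 to 700 kb and -0.28 from 710 to 920 kb. The captured region stayed between 0.00046 and 0.026 in the same bands. Of the 244 desert pairs in the longest band, 59 were higher in stop-cassette forelimb. A smaller drift with distance was also seen between wild-type maps. From the shortest to the longest band, wild-type forelimb over forebrain went from 0.016 to -0.084, and over midhindbrain boundary from 0.018 to -0.115. Midhindbrain boundary over forebrain went from 0.0085 to 0.021.

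The left edge also had another profile in the stop-cassette map. At 100 kb outside the edge, the score of the 200 kb square was -0.20, -0.28, -0.31 and -0.054, and stop-cassette forelimb was the highest. At 100 kb inside it was -0.040, -0.040, -0.083 and -0.18, with stop-cassette forelimb the lowest. The 3 wild-type maps lay together on the inner side. Stop-cassette minus wild-type forelimb was 0.15 (95% counting interval 0.13 to 0.16) on the outer and -0.14 (-0.17 to -0.12) on the inner side, and 0.028 (0.0042 to 0.052) at the edge. The lowest score fell on the left edge itself in every map.

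No single desert bin pair passed the test between maps. Each pair from 30 kb to 1 Mb with at least 20 counts over both maps was tested by a two-sided exact binomial comparison of its counts, with p-values adjusted with Benjamini-Hochberg over the whole captured region. A call needed an adjusted p under 0.05 and a 2-fold difference. Stop-cassette against wild-type forelimb gave 0 calls among 4074 desert pairs, where 0.0282% of all pairs tested in the map were called. Wild-type forelimb gave 0 calls against forebrain, with 0.0198% called in the map, and 0 against midhindbrain boundary, with 0.0621%. Midhindbrain boundary against forebrain gave 0, with 0.0113%. A count of 0 among as many pairs is near these shares of the map and sets nothing apart. An unadjusted p under 0.05 was found for 306, 217, 212 and 171 desert pairs, or 7.51%, 5.32%, 5.19% and 4.18%, against 9.45%, 8.97%, 10.3% and 7.21% in the map. These tests compare the reads of merged maps and not the conditions. Their p-values hold counting error alone, for which the mean squared standardised deviation of the pairs would be near 1. It was 1.51, 1.48, 1.60 and 1.31 over the map and 1.33, 1.07, 1.08 and 0.977 in the desert. Where it is above 1, p-values from counting error are too small for any spread between libraries, which was not measured.

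Regardless of test, a 2-fold difference was found for 25 desert pairs between the forelimb maps, which is 0.614% against 1.34% over the map. Of these, 3 were higher and 22 lower in stop-cassette forelimb. The tissue comparisons gave 10 pairs (0.245% against 0.901%), 10 pairs (0.245% against 0.955%) and 6 pairs (0.147% against 0.768%). The shares in the desert lay under those of the map, and this difference was not tested. Over all bin pairs of a map, at every distance, the median was 17 to 19 counts, which does not describe the tested pairs alone. Without the 2-fold rule, 2 of 4074 desert pairs had an adjusted p under 0.05 between the forelimb maps by the exact binomial test. Over the map 27 of 35433 pairs had one, so the count of 2 is near the share of the map and sets nothing apart. The pair 123510001 with 123550001, 40 kb apart, had 285 contacts with the cassette and 520 without it, 1.44-fold lower relative to the map (adjusted p = 0.0045, exact binomial). The pair 123660001 with 123690001 lies to the right of the notch and does not cross it. It had 553 and 864 contacts, 1.28-fold lower (adjusted p = 0.017, exact binomial). By the same cut, wild-type forelimb against forebrain had 1 of 4082 desert pairs, with 135 of 35409 over the map. Against midhindbrain boundary it had 1 of 4081, with 241 of 35403 over the map. Midhindbrain boundary against forebrain had 0 of 4087, with 79 of 35298. In these tissue comparisons the desert lay under the share of the map, which was not tested. The short-range pair 124150001 with 124180001, which holds a low bin, was 1.33-fold lower in wild-type forelimb than in forebrain (adjusted p = 2.9e-09, exact binomial) and 1.16-fold lower than in midhindbrain boundary (adjusted p = 0.048, exact binomial). The 750 kb focus did not pass between the forelimb maps, being 1.37-fold lower in stop-cassette forelimb (adjusted p = 0.27, exact binomial).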

How the data were processed

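Members and comparisons were chosen with earlier results of these data known. Raw maps were deposited as counts of contacts between 10 kb bins and balanced maps were deposited as KR signal, with the libraries of each group merged by the authors, per the labels. Map names in the labels record HiCUP and a mapping quality of 30. The submitters' processing notes list Bowtie2 2.3.4.1, Juicer 1.7.6 and mm9. Pairs not listed were read as 0. Raw count equals KR signal times 1 factor per bin, as checked.

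Computations used Python 3.11.15, numpy 2.4.6 and scipy 1.17.1. Expected signal is the mean over the map at each distance. Slopes are least squares on log means. Counting SDs are propagated from raw counts. Pair tests were exact binomial with the expected share from distance and KR factors. They were tested on simulated maps with Poisson counting error only, which cannot show the effect of a wider spread between maps. Ratios use a prior of 0.5 counts. Named were called pairs, the 5 highest and 3 lowest pairs of mean log2 O/E (a pair within 20 kb of a named one skipped), inner minima, and low bins. Reads that are duplicates would make counting errors too small. Another build's genome was not used, so no sequence is printed.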

Additional observations from a re-analysis of the deposited data

How the results depend on the processing

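No paired analysis was possible because the libraries of a group were merged into 1 map, and for the same reason leaving out a library was not possible. Values follow the order wild-type forelimb, forebrain, midhindbrain boundary, stop-cassette forelimb, and the cause of each shift was not tested.

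The share of map contacts was 17.2%, 17.3%, 17.3% and 16.2% with KR signal, 11.5%, 13.1%, 12.6% and 11.9% at all distances, 8.55%, 9.67%, 9.22% and 7.80% from 100 kb, and 5.85%, 6.63%, 6.32% and 5.61% without low bins. Retention was 69.2%, 70.5%, 70.5% and 65.2% with KR signal, 51.3%, 55.0%, 53.8% and 45.5% from 100 kb, and 55.3%, 58.7%, 57.8% and 50.8% without low bins. The slope was -0.53, -0.51, -0.48 and -0.61 from 100 kb, -0.69, -0.66, -0.69 and -0.74 up to 500 kb, -0.64, -0.63, -0.61 and -0.70 with raw counts, and -0.62, -0.59, -0.60 and -0.68 without the last 200 kb. Stop-cassette forelimb was the lowest in retention and the steepest in slope under each of these settings. It was not the lowest in share at all distances.

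The SD of log2 O/E was 0.215, 0.225, 0.217 and 0.250 with the desert's own expected signal, 0.218, 0.227, 0.215 and 0.195 in 20 kb bins, 0.203, 0.210, 0.20 and 0.169 in 50 kb bins, 0.235, 0.246, 0.237 and 0.222 without low bins, and 0.721, 0.736, 0.739 and 0.721 with raw counts. Inner minima numbered 1, 1, 1 and 0 with the 100 kb square and at depth 0.1, 2, 1, 1 and 2 with raw counts, and 1, 1, 1 and 2 with low bins left out. Low bins numbered 60, 46, 56 and 59 under 2/3 of the median. Without KR factors, 7 desert pairs were called between the forelimb maps and 3 between wild-type forelimb and forebrain. Calls over the whole map were not counted at this setting, so these counts set nothing apart. A 2-fold difference with no test gave 25 between the forelimb maps, 10 and 10 for wild-type forelimb against forebrain and midhindbrain boundary, and 6 between the brain maps.

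Signs turned for single values. The score at 123800001 was -0.023, -0.0092 and -0.031 in the wild-type maps with the 100 kb square, and -0.76, -0.62, -0.72 and -0.74 with raw counts. The pair 123490001 with 124370001 fell to 0.97 in forebrain and 0.96 in midhindbrain boundary against the desert's own mean. In 20 kb bins, 124050001 with 124280001 rose to 1.05 in wild-type and 1.04 in stop-cassette forelimb, and 123740001 with 123840001 to 1.01, 1.02, 1.01 and 1.06. With raw counts the ratio between the ends was 0.957 in wild-type and 0.866 in stop-cassette forelimb. Depth limits single pairs: the sparsest desert pair held 1, 2, 4 and 2 counts.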
